A study of Mus musculus with 51 samples.

Results

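Histone chaperones are proteins that escort histones and hand them to DNA or take them off it. Described here are the genes for 10 of them, taken by gene name from the 37525 gene entries of the 5 deposited RNA tables: Chaf1a, Chaf1b, Asf1a, Asf1b, Nasp, Hira, Daxx, Atrx, Nap1l1 and Ssrp1. Called chromatin regions within 2 kb of their start sites were taken from 4 peak tables. All 10 genes stood in the 18h, 20h, 22h and stem cell tables, and Daxx had no entry in the 24h table, which left 9 there.

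The study asked how a disturbed nucleolus acts on gene expression in mouse two-cell embryos. RNA was sequenced from C57BL/6 embryos at 18h, 20h, 22h and 24h that were either control or LoNA KO, that is, knocked out for the nucleolar long noncoding RNA LoNA, and the origin from which these hours run is not stated in the labels. RNA was also sequenced from C57BL/6 mouse embryonic stem cells called 2C-like mESC, either control or LoNA KD, that is, with the same RNA knocked down. Chromatin of 24h control and LoNA KO embryos was profiled for H3K4me3, H3K27me3 and acetylated nucleophosmin (AcNPM1), and AcNPM1 also in LoNA KO embryos given a p300 inhibitor. The labels state neither how the knockout or the knockdown was made, nor how many embryos went into a library, nor whether the libraries of a group came from separate pools. A p here therefore measures the spread between these libraries, which may be technical.

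Newly made DNA has to be packed with histones before it can work as chromatin. The CAF-1 complex, of which Chaf1a and Chaf1b encode subunits, places histones H3 and H4 on DNA behind the replication fork, and receives them from ASF1, whose forms are encoded by Asf1a and Asf1b. NASP keeps a soluble store of H3 and H4. HIRA, and DAXX with its partner ATRX, deposit the replacement histone H3.3 outside replication, HIRA mostly in active chromatin and DAXX with ATRX mostly in repeats and heterochromatin. NAP1L1 handles H2A and H2B, and SSRP1 is a subunit of FACT, which loosens nucleosomes ahead of polymerases. In early mouse embryos these proteins are known for repackaging the paternal genome and for setting up chromatin in the first cell cycles, and loss of CAF-1 in stem cells is known to raise the number of two-cell-like cells.

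The start regions of 4 of the genes are shown because the chromatin results below turn on them. Daxx and Asf1b had the highest H3K4me3 at their starts, Atrx had the lowest, and Asf1a is the paralog of Asf1b with far less of the mark (Asf1a and Atrx were picked after their values were seen). Each sequence is the 250 bases before the RefSeq gene start on GRCm38.p6, written 5′ to 3′ along the gene, with CCAAT in either orientation (CCAAT or ATTGG) in capitals. They lie at chr17:33909195-33909444 on the plus strand for Daxx, chr8:83955444-83955693 on the plus strand for Asf1b, chr10:53596711-53596960 on the plus strand for Asf1a, and chrX:105929373-105929622 on the minus strand for Atrx. The RefSeq start lay downstream of the start in the deposited gene entries, by 204 bp for Asf1a, 187 bp for Asf1b and 31 bp for Daxx and Atrx. Most of the Asf1a and Asf1b stretches thus lies inside the deposited genes. Distances to chromatin regions below run from the deposited starts.
Daxx: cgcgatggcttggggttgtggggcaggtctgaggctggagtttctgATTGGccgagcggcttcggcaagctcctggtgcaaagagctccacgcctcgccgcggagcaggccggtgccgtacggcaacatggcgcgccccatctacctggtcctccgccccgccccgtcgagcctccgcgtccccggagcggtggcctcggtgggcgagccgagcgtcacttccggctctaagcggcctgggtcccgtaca
Asf1b: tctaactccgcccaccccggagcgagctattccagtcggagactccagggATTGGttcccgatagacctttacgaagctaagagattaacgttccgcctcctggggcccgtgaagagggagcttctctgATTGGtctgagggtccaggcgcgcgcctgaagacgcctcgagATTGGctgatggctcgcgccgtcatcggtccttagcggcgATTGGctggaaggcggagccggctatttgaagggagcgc
Asf1a: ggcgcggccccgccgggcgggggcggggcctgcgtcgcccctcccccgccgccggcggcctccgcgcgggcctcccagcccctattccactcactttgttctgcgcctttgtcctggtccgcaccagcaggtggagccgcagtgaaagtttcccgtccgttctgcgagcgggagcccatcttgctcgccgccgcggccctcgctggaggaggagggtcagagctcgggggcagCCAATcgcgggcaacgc
Atrx: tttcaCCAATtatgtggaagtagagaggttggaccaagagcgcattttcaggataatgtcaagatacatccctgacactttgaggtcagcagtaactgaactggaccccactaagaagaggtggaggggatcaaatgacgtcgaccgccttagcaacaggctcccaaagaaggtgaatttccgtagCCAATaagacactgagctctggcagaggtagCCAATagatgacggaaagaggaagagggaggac

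CCAAT is the core of the box bound by the factor NF-Y. It occurred on either strand in the 250 bases before the RefSeq start of 7 of the 10 genes. Of 21263 such windows of protein-coding genes in the RefSeq table, where a gene may have several windows, 35.4% held it. Asf1b held 4 copies, all in the ATTGG orientation, Atrx 3, Nasp 2, and Daxx, Asf1a, Chaf1a and Nap1l1 1 each. Chaf1b, Hira and Ssrp1 held none in this window. The CpG count ran from 6 in the Atrx window to 31 in the Asf1a window, against a median of 10 over all windows, and only Atrx lay below that median while Ssrp1 lay on it. None of the 10 windows held any of the E2F words TTTCCCGC, TTTCGCGC, TTTGCCGC or TTTGGCGC on either strand, which 2.35% of all windows held. A match is a description of letters, not of a bound site.

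The RNA tables held 3 libraries a group at 18h, 20h and 22h, with 12077497 to 18286944 counts each, and 2 columns a group for the stem cells, with 16906302 to 17674190 counts each. At 24h the 4 columns of a group fell into pairs with a correlation of log2 CPM (counts scaled by the library size) of 0.995 to 0.998, and each pair was summed, which left 2 libraries a group. Those 24h libraries had a count for 7877 to 10167 genes, against 17125 to 23957 in all other libraries, and correlated at 0.572 to 0.632 within a group. Gm17382, the transcript used here to check the loss of LoNA, had 45.7 to 94.6 CPM in the 20h control libraries and 0.0632 to 0.198 CPM in the 20h KO libraries, with a like contrast at 18h, at 22h and in the stem cells, and it had no entry at 24h. Summed over the 9 two-cell markers, 18h and 20h embryo libraries had 4558 to 19900.1 CPM, and each of the 9 had counts in every group at both times. The control stem cells, whose label calls them 2C-like, had 209 to 223 CPM over those markers, with Zscan4d at 2.58 CPM and Zfp352 at 0.0574 CPM, beside 4039 to 4051 CPM over 8 pluripotency markers.

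In embryos, loss of LoNA moved none of the 10 genes past the test at any time. With edgeR's quasi-likelihood test and an adjusted p under 0.05 over all genes, 0 of 10 passed at 18h, 0 of 10 at 20h, 0 of 10 at 22h and 0 of the 7 that could be tested at 24h. The backgrounds were as small: 0.00649% of 15416 genes tested passed at 18h, 0.0138% of 14524 at 20h, 0.00656% of 15251 at 22h and 0% of 7425 at 24h. At an unadjusted p under 0.05 the counts were 0 of the 10 at 18h, 1 at 20h, 1 at 22h and 0 of 7 at 24h, and over all genes 793, 532, 481 and 383. DESeq2 called 62, 22, 5 and 404 genes at the 4 times, none of them among the 10. Fewer cells of a type and less RNA per cell cannot be told apart in these bulk samples. A count of 0 here does not show equal levels, since the 95% intervals of the log2 changes were wide, and they are given below for the genes that stood apart most.

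**Figure D1:**
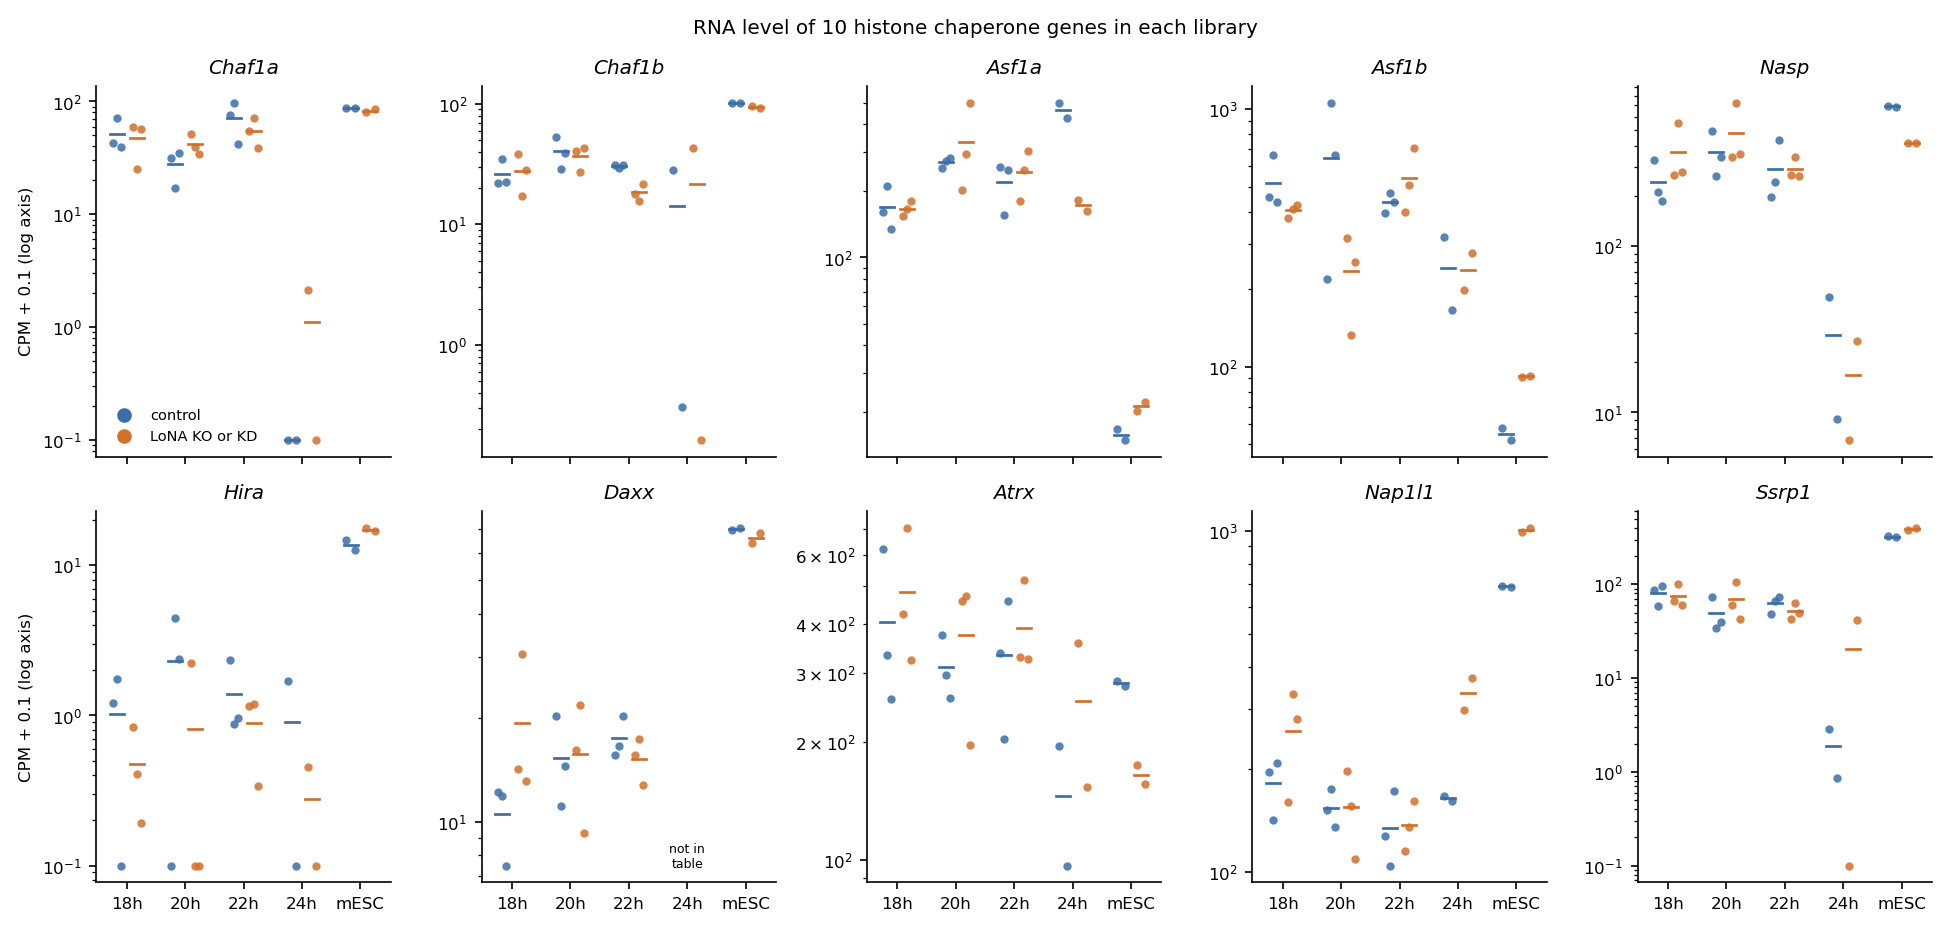
RNA level of each of the 10 genes in every library, as CPM plus 0.1 on a log axis, by time or cell type (24h: 2 summed libraries a group; mESC: 2 columns a group); points are libraries and short lines group means. Control and KO points intermix at 18h, 20h and 22h for most genes, while the stem cell points of Asf1a and Asf1b sit below, and those of Chaf1b, Hira, Daxx, Nap1l1 and Ssrp1 above, all embryo points from 18h to 22h.

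Chaf1a (chromosome 17, 56040416 to 56068026, mm10) and Chaf1b (chromosome 16, 93883901 to 93906115) encode the subunits of CAF-1 that bind histones and the replication clamp. At 22h, Chaf1b stood at 31.2, 29.4 and 30.8 CPM in the control libraries and at 17.8, 15.6 and 21.7 CPM in the KO libraries. All 3 KO libraries lay below all 3 controls, and Chaf1b was the only one of the 10 whose groups did not overlap at that time, where 9.23% of all genes did not overlap. The log2 change was -0.73 (95% interval -1.35 to -0.11, n = 3 against 3), with an unadjusted edgeR p of 0.0254 and an adjusted p of 0.99996. Chaf1b overlapped between the groups at the earlier times, with 21.9, 34.6 and 22.5 CPM in control and 37.9, 17.2 and 28.0 CPM in KO at 18h. At 20h it had 52.9, 28.8 and 39.3 CPM in control and 40.7, 27.1 and 43.1 CPM in KO. Its partner Chaf1a had 75.7, 97.1 and 42.2 CPM in control and 54.4, 71.3 and 39.0 CPM in KO at 22h. The Chaf1a groups overlapped at 18h, 20h and 22h, with log2 changes of -0.11, 0.59 and -0.38.

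Asf1a (chromosome 10, 53596757 to 53609225) and Asf1b (chromosome 8, 83955507 to 83970197) encode the paralogs of the H3-H4 chaperone ASF1. At 18h, Asf1b had 455, 662 and 437 CPM in control and 379, 408 and 424 CPM in KO, so that all KO libraries lay below all controls; 12.8% of all genes had groups that did not overlap at 18h. The log2 change was -0.36 (95% interval -0.96 to 0.24), with an unadjusted p of 0.213 and an adjusted p of 0.9999 by edgeR. At 20h the Asf1b control libraries spread from 219 to 1057 CPM with 663 CPM between, and the KO libraries stood at 315, 133 and 255 CPM. The lowest control lay inside the KO range, and the other two lay above it; none of the 10 genes was without overlap at 20h, where 9.87% of all genes were. Among the KO against control comparisons in embryos this was the change in Asf1b with the lowest p, a log2 change of -1.46 (95% interval -2.60 to -0.33; edgeR unadjusted p 0.0162, adjusted p 0.998), and it came to -0.92 without control library 2. At 22h the groups overlapped, with 396, 474 and 434 CPM in control and 399.8, 506 and 706 CPM in KO, a log2 change of 0.31.

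Whether the Asf1b change differed between the times was tested as an interaction of genotype and time over the 18 libraries of 18h, 20h and 22h. Asf1b had the lowest p of the 10 in that test, 0.0206, with an adjusted p of 0.783 by edgeR, and 0 of the 10 genes and 0% of the 18992 genes tested passed; 13 of all genes and none of the 10 did with DESeq2. Asf1a overlapped between control and KO at each of these times. It had 254, 273 and 281 CPM in control and 201, 294 and 500.4 CPM in KO at 20h, where the KO libraries spread to both sides of the controls. Its log2 changes were -0.017 at 18h, 0.30 at 20h and 0.15 at 22h.

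Nasp (chromosome 4, 116601052 to 116627941, minus strand) encodes a carrier of soluble H3 and H4. At 18h it had 327, 211 and 186 CPM in control and 269, 547 and 280.0 CPM in KO, with KO library 2 above all others. The log2 change of 0.60 (95% interval -0.20 to 1.39; edgeR adjusted p 0.9999) came to 0.16 without that library. Nasp overlapped between the groups at 20h and 22h as well, with log2 changes of 0.38 and 0.0038.

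Daxx (chromosome 17, 33909414 to 33915589) and Atrx (chromosome X, 105797615 to 105929403, minus strand) encode partners in depositing H3.3. Daxx at 18h had 12.1, 11.8 and 7.38 CPM in control and 14.1, 30.4 and 13.04 CPM in KO. All KO libraries lay above all controls, 1 of them by far, and Daxx and Asf1b were the only ones of the 10 without overlap at 18h. The log2 change of Daxx was 0.88 (95% interval -0.22 to 1.98; edgeR unadjusted p 0.106, adjusted p 0.9999), and it was 0.36 without KO library 2. Daxx overlapped between the groups at 20h and at 22h, where the log2 changes were 0.042 and -0.20. Atrx had 623, 333 and 258 CPM in control and 423, 702 and 324 CPM in KO at 18h, and its groups overlapped there and at both later times, with log2 changes of 0.26, 0.27 and 0.23.

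The 18h KO library 2 was the highest of the 6 libraries of that time in Nasp, Daxx, Atrx, Nap1l1 and Ssrp1 and the lowest in Chaf1a and Chaf1b. Mitochondrially encoded transcripts took 9.84% of its counts, against 2.86% to 5.71% in the other 18h libraries. Its part in these values was not tested. Summed over the 9 two-cell markers, the 18h KO libraries had 8468 to 12517.7 CPM and the controls 4558 to 7502 CPM, and over the fibroblast markers, 4 of 6 with an entry, 0.182 to 4.30 CPM and 6.39 to 8.34 CPM, with Col1a2 and Dcn at 0 in KO. By gene, 7 of the 9 two-cell markers were higher in KO and 2 lower. Zfp352 was among the lower, with a mean of 96.4 CPM in KO and 160 CPM in control. Zscan4d overlapped between the groups, with means of 180 and 163 CPM. Both sums were without overlap at 18h, as Daxx and Asf1b were, and their part in those values was not tested. Without KO library 2, 0 of the 10 genes passed at 18h, as with it, and the Atrx log2 change turned from 0.26 to -0.14 and that of Chaf1a from -0.11 to 0.16.

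Hira (chromosome 16, 18877037 to 18970309) encodes the core of the complex that deposits H3.3 in active chromatin, and the maternal protein is known to act on the paternal genome. Its RNA was low in the embryo libraries from 18h to 22h, at 0 to 4.33 CPM. At 18h the control libraries had 1.11, 1.66 and 0 CPM, and the KO libraries 0.736, 0.307 and 0.0912 CPM, the last from 1 read. At 20h it had 0, 4.33 and 2.28 CPM in control and 2.15, 0 and 0 CPM in KO. A count of 0 in these libraries allows a level of up to 0.193 to 0.211 CPM from counting error alone. The groups overlapped at 18h, 20h and 22h, and the 95% interval of the log2 change at 18h ran from -5.07 to 2.57.

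Nap1l1 (chromosome 10, 111473223 to 111498150) encodes a carrier of H2A and H2B, and Ssrp1 (chromosome 2, 85037234 to 85047109) a subunit of FACT. At 18h, Nap1l1 had 196, 142 and 209 CPM in control and 160.3, 333 and 281 CPM in KO. KO library 1 lay inside the range of the controls and the other two lay above it, and the log2 change was 0.50 (95% interval -0.23 to 1.23). At 20h and 22h the log2 changes of Nap1l1 were 0.0083 and 0.026. Ssrp1 had 73.9, 34.4 and 40.0 CPM in control and 60.0, 106 and 43.0 CPM in KO at 20h, again with overlap, and its log2 changes were -0.079, 0.50 and -0.29 at 18h, 20h and 22h.

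**Figure D2:**
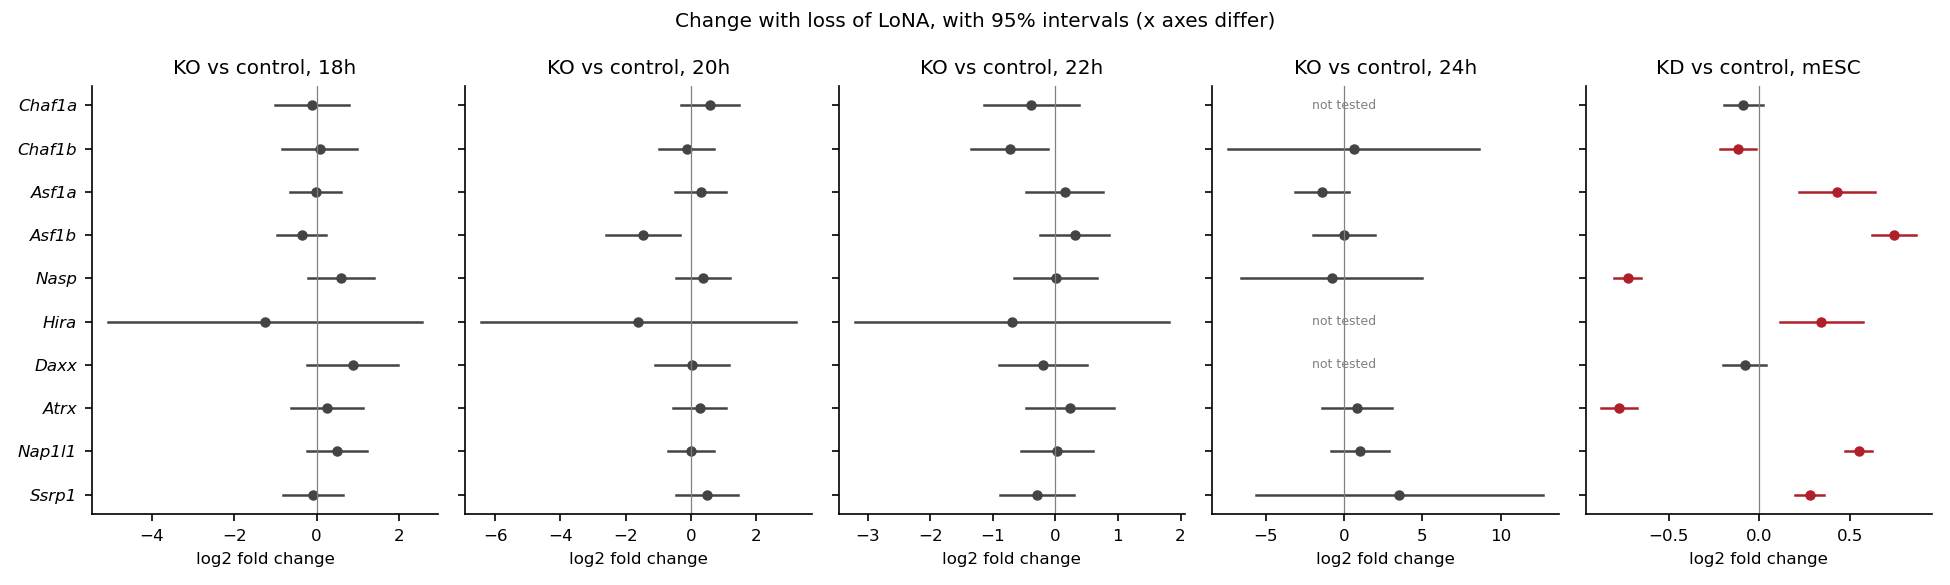
log2 fold change of each gene, KO over control at each time and KD over control in 2C-like mESC, from edgeR, with points for the estimate and lines for its 95% interval (red: adjusted p under 0.05). No embryo comparison has a red gene, while 8 of 10 are red in the stem cells, where the axis is the narrowest.

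At 24h the tested genes of the 10 were Chaf1b, Asf1a, Asf1b, Nasp, Atrx, Nap1l1 and Ssrp1, and Chaf1a and Hira had too few counts for the test. Asf1a had 499 and 429 CPM in control and 182 and 162 CPM in KO. Both KO libraries lay below both controls, and the log2 change was -1.43 (95% interval -3.15 to 0.28; edgeR unadjusted p 0.0886, adjusted p 0.908, n = 2 against 2). Nap1l1 went the other way, with 167 and 162 CPM in control and 298 and 369.9 CPM in KO, a log2 change of 1.02 (95% interval -0.84 to 2.88; adjusted p 0.9999 by edgeR). These were the only 2 of the 10 without overlap at 24h, where 33.3% of all genes tested did not overlap. When the 4 columns of each group were taken as separate libraries, although the columns of a pair were near-identical, Asf1a had an edgeR adjusted p of 0.00829 and Nap1l1 one of 0.0187. Markers of other cells moved beside them. The trophectoderm markers, 3 of 6 with an entry at 24h, summed to 104 to 107 CPM in control and to 0 to 0.0707 CPM in KO, with Eomes and Krt18 at 0 in KO. The 8 oocyte and maternal markers summed to 4181 to 5216 CPM in control and to 6951 to 9832 CPM in KO, again without overlap. By gene, 5 of these 8 were higher in KO and 3 lower, with a median log2 change of 0.28. The part of either list in the Asf1a and Nap1l1 values was not tested.

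The other chaperones overlapped between the groups at 24h. Chaf1b had 28.0 and 0.206 CPM in control and 42.9 and 0.0616 CPM in KO, and Ssrp1 had 2.79 and 0.757 CPM in control and 0 and 41.1 CPM in KO. Nasp, at 186 CPM or more in every library from 18h to 22h, was at 49.5 and 9.02 CPM in control and 6.71 and 26.8 CPM in KO at 24h. Chaf1a was at 0 in both controls and at 2.05 and 0 CPM in KO. The libraries of each time, 24h included, were normalised in their own table. Mitochondrially encoded transcripts took 12.9% to 19.3% of the counts in the 24h libraries, against 9.84% or less in all others. The pluripotency gene Pou5f1, at 8.60 CPM or more in all 18h libraries, was at 0 in both 24h KO libraries and at 0.0688 and 17.2 CPM in the 24h controls. Its list of 8 pluripotency markers, 6 with an entry at 24h, did not fall as a whole. It summed to 160 to 245 CPM in KO and 153 to 192 CPM in control at 24h. At 18h it summed to 75.7 to 116 CPM in KO and 90.9 to 125 CPM in control. The part of these values in the levels at 24h was not tested.

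The same genes were followed over time in 1 model of the 18 libraries of 18h, 20h and 22h. Control and KO each have their own libraries in it, but each time was deposited as its own table, so time and table cannot be told apart. The CPM values given were scaled within the table of each time, while the log2 changes come from the joint model. None of the 10 passed in any of the 6 comparisons of times. In controls, 0.753% of 18992 genes passed from 18h to 20h, 2.94% from 20h to 22h and 1.58% from 18h to 22h. In KO embryos the shares were 1.26%, 8.67% and 4.13%. The lowest adjusted p of a gene of the 10 in controls was that of Chaf1a from 20h to 22h, from 31.4, 16.9 and 34.9 CPM to 75.7, 97.1 and 42.2 CPM. All 3 later libraries lay above all 3 earlier ones, as 22.1% of all genes were apart in 1 direction or the other over this step. The log2 change was 1.32 (95% interval 0.46 to 2.17), and the adjusted p was 0.0847 by edgeR and 0.0436 by DESeq2. This rise followed a fall, since the 18h controls had 43.2, 71.9 and 39.1 CPM, all above the 20h controls. From 18h to 20h the log2 change was -0.91 (edgeR adjusted p 0.304), and 21.4% of all genes were apart in either direction. From 18h to 22h the log2 change of Chaf1a was 0.41 (edgeR adjusted p 0.786).

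In KO embryos, 4 genes came near the threshold with edgeR and each passed it under some other setting. Asf1a from 18h to 20h went from 153, 166 and 179.8 CPM to 201, 294 and 500.4 CPM, with a log2 change of 1.06 and an edgeR adjusted p of 0.0834; without KO 20h library 3 the log2 change was 0.60. Chaf1b from 20h to 22h went from 40.7, 27.1 and 43.1 CPM to 17.8, 15.6 and 21.7 CPM, with a log2 change of -1.10 and an edgeR adjusted p of 0.0618. Asf1b went up over the same step from 315, 133 and 255 CPM to 399.8, 506 and 706 CPM, with a log2 change of 1.11 and an edgeR adjusted p of 0.0938. In these 3 cases the libraries of one time lay wholly apart from those of the other, and so did those of 17.4% of all genes from 18h to 20h and of 30.2% from 20h to 22h. The rise of Asf1b followed a fall, since the 18h KO libraries had 379, 408 and 424 CPM, all above the 20h KO libraries. From 18h to 20h its log2 change was -0.72 (edgeR adjusted p 0.332), and from 18h to 22h 0.38 (edgeR adjusted p 0.672). Nap1l1 from 18h to 22h went from 160.3, 333 and 281 CPM to 115, 135 and 162 CPM, where 1 library of each time overlapped, with a log2 change of -0.94 and an edgeR adjusted p of 0.0870. With RLE size factors in place of TMM, the median log2 change over all genes from 18h to 22h in KO moved from 0.050 to -0.073, and the genes called split into 360 higher and 438 lower instead of 475 and 309; Nap1l1 then stood at -1.07, with an edgeR adjusted p of 0.0487. The values of the control and KO time courses are given side by side, and whether they differed is answered only by the interaction test above.

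Of the other chaperones and their partners, 40 genes in 4 lists, none passed between KO and control embryos at any time: 0 of 38 tested at 18h, 0 of 38 at 20h, 0 of 37 at 22h and 0 of 27 at 24h. Their median log2 changes were 0.042, 0.073, -0.0029 and 0.28, against -0.015, -0.027, -0.0021 and 0.023 over all genes tested. The lowest p values at 18h were those of the nucleolar H2A-H2B chaperone Npm1, with a log2 change of 0.89 (edgeR adjusted p 0.744), and its oocyte form Npm2, with 1.04 (edgeR adjusted p 0.746). At 20h they were those of Hat1, the enzyme that acetylates new H4 (-1.12), and of Anp32a (1.03). At 22h they were those of Ubn1, a subunit of the HIRA complex (0.61), and Grwd1 (0.88), and at 24h the one given here is that of Rsf1. Rsf1 had a mean of 36.4 CPM in control, with an SD of 51.4 that exceeds it, and of 0.616 CPM in KO (SD 0.871), and the log2 change was -5.86 (95% interval -15.7 to 3.98; edgeR unadjusted p 0.201, n = 2 against 2).

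Over time some of these partners did pass. In controls 0.753% of all genes passed from 18h to 20h, 2.94% from 20h to 22h and 1.58% from 18h to 22h. For KO embryos the shares were 1.26%, 8.67% and 4.13%. From 18h to 22h in controls, 2 of 40 rose and 1 fell: Mis18a, which prepares centromeres for their histone, with a log2 change of 1.73 and Spty2d1 with 1.51 rose, and Cabin1, a subunit of the HIRA complex, fell, with -1.29. In KO embryos over the same span, Mis18a rose with a log2 change of 1.98, and Npm1 and Anp32a fell, with -1.34 and -2.19. Each of these had an adjusted p between 0.00586 and 0.0309 by edgeR. From 20h to 22h in KO embryos, 3 of 40 rose (Hat1, with a log2 change of 2.23, Mcm7 with 1.31 and Spty2d1 with 1.04) and 3 fell (Anp32a with -1.88, Npm2 with -1.80 and Npm1 with -1.21). From 20h to 22h in controls 1 of 40, Cbx5, rose with a log2 change of 0.98, and from 18h to 20h 1, Cabin1, fell in controls with -1.41 and none passed in KO.

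In 2C-like mESC, the knockdown went with changes in 8 of the 10 genes, 5 higher and 3 lower, each by less than 2-fold. So did 74.2% of all 16406 genes tested, 38.9% higher and 35.3% lower, and the columns of the 2 groups did not overlap for any of the 10, nor for 86.6% of all genes. The biological coefficient of variation in this table was 3.39%, against 55.5% to 77.5% at 18h, 20h and 22h, and the columns of a group correlated at 0.998, as closely as the columns that were summed at 24h. The p values below rest on that likeness between columns.

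Atrx and Nasp were lower in the knockdown. Atrx had 287 and 278 CPM in control and 174 and 156 CPM in KD, and fell by 0.77 on the log2 scale (SE 0.0470; edgeR adjusted p 2.14e-12). Nasp had 693 and 688 CPM in control and 418 and 416 CPM in KD, and fell by 0.73 (SE 0.0368; edgeR adjusted p 8.69e-14). Chaf1b, with 102 and 102 CPM in control and 95.3 and 92.2 CPM in KD, fell by 0.12 (edgeR adjusted p 0.0300), but had an adjusted p of 0.122 by DESeq2 and lost the call when any 1 column was left out. Its partner Chaf1a had 87.5 and 88.0 CPM in control and 79.9 and 85.1 CPM in KD, a log2 change of -0.089 (95% interval -0.20 to 0.019; edgeR adjusted p 0.127).

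Both ASF1 paralogs were higher in the knockdown. Asf1b had 57.8 and 51.7 CPM in control and 91.2 and 92.3 CPM in KD, and rose with a log2 change of 0.74 (SE 0.0586; edgeR adjusted p 1.84e-10). Asf1a had 16.6 and 14.8 CPM in control and 20.1 and 22.2 CPM in KD, with a log2 change of 0.43 (SE 0.101; edgeR adjusted p 0.000724). Nap1l1 rose as well, from 690.3 and 686 CPM in control to 995 and 1018 CPM in KD, with a log2 change of 0.55 (SE 0.0364; edgeR adjusted p 1.01e-11). Ssrp1 rose with a log2 change of 0.28 (SE 0.0384; edgeR adjusted p 1.27e-06), with 327 and 319 CPM in control and 385 and 398 CPM in KD.

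Among the H3.3 chaperones, Hira had 14.6 and 12.5 CPM in control and 17.6 and 16.8 CPM in KD, a log2 change of 0.34 (SE 0.110; edgeR adjusted p 0.00815). Its adjusted p was 0.0753 by DESeq2 and 0.107 without control column 2. Daxx had 69.6 and 70.4 CPM in control and 63.9 and 68.5 CPM in KD, a log2 change of -0.081 (95% interval -0.20 to 0.037; edgeR adjusted p 0.202). Atrx thus fell in a comparison in which its partner Daxx did not pass; the difference between the 2 genes was not tested.

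Of the 40 partners, 12 rose and 18 fell in the knockdown by edgeR's adjusted p, where 38.9% of all genes tested rose and 35.3% fell. The 17 H3-H4 chaperones and complex members had a median log2 change of -0.022, with 6 higher and 7 lower, and the 14 H2A-H2B chaperones one of 0.020, with 5 higher and 5 lower. The 5 replication fork partners had a median of -0.26, with 0 higher and 4 lower, and the 4 centromere chaperones one of -0.12, with 1 higher and 2 lower; the median over all genes was 0.0080. The largest rises were those of Nap1l5, from a mean of 0.717 to 18.0 CPM (log2 change 4.63), Npm2, from 0.172 to 0.914 CPM (2.36), and Mis18a (0.46). The largest falls were those of Nap1l3, with a log2 change of -1.24, Mms22l with -0.76 and Ubn2 with -0.65, each with an adjusted p of 0.00130 or less by edgeR.

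Markers of other cell states moved in the same comparison. Summed over 6 fibroblast markers, control columns had 496 to 517 CPM and KD columns 210 to 211 CPM, and over 8 pluripotency markers 4039 to 4051 CPM and 1990 to 2027 CPM. All 6 and all 8 fell with an adjusted p under 0.05 by edgeR, as 35.3% of all genes tested did. None of these markers was at 0. The fall was not particular to these 2 lists. By the same test 5 of 5 two-cell markers tested, 3 of 5 cumulus and granulosa markers and 2 of 2 blood markers fell. The 9 two-cell markers summed to 209 to 223 CPM in control and 181 to 192 CPM in KD. Among trophectoderm markers 1 rose and 3 fell, and among oocyte and maternal markers 2 rose and 2 fell. Mitochondrially encoded transcripts took 1.48% to 1.53% of the counts in control and 2.24% to 2.26% in KD. The part of these markers and of that share in the changes of the 10 genes was not tested.

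The level of each gene in the control stem cells was set beside the 18 embryo libraries of 18h, 20h and 22h, control and KO. The tables were normalised separately and cell type and table cannot be told apart, so this is a description with no test. In both control stem cell columns, 5 of the 10 genes stood higher than in every embryo library (against 42.7% of 15766 genes), and 2 stood lower than in every embryo library (against 19.9%). The 2 lower ones were the ASF1 paralogs. Asf1a ran from 134 to 500.4 CPM with a median of 229 CPM in the embryo libraries, and had a mean of 15.7 CPM in control stem cells, 0.0716 times the mean of 219 CPM in control embryos. Asf1b ran from 133 to 1057 CPM with a median of 429 CPM in embryos, and had a mean of 54.8 CPM in stem cells, 0.103 times the control embryo mean of 533 CPM.

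The 5 higher ones were Hira, Ssrp1, Daxx, Nap1l1 and Chaf1b. Hira had 0 to 4.33 CPM in the embryo libraries and a mean of 13.6 CPM in control stem cells, 9.20 times the control embryo mean. Ssrp1 had 34.4 to 106 CPM in embryos and a mean of 323 CPM in stem cells (5.03 times the control embryo mean), and Daxx 7.38 to 30.4 CPM and 70.0 CPM (4.89 times). For Nap1l1 the embryo range was 104 to 333 CPM and the stem cell mean 688 CPM (4.38 times), and for Chaf1b 15.6 to 52.9 CPM and 102 CPM (3.15 times). Chaf1a, Nasp and Atrx overlapped, with stem cell means of 1.75, 2.31 and 0.808 times those of the control embryos. Fibroblast markers summed to 12.3 CPM or less in these embryo libraries, against 496 to 517 CPM in the control stem cells, and the part of such cells was not tested.

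**Figure D3:**
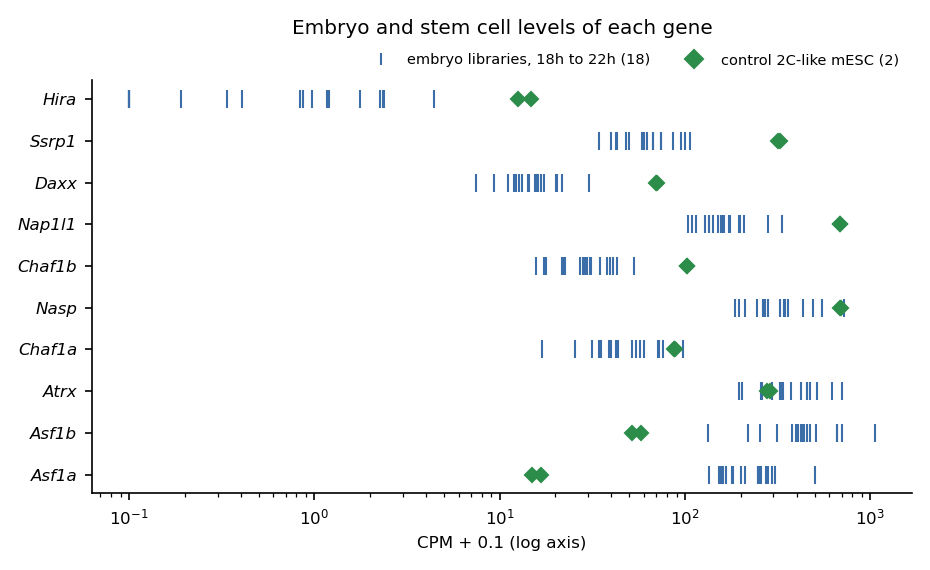
Each gene's level, as CPM plus 0.1 on a log axis, in the 18 embryo libraries of 18h to 22h (ticks) and in the 2 columns of control 2C-like mESC (diamonds), ordered by the ratio of the stem cell to the control embryo mean. Diamonds lie left of all ticks for Asf1a and Asf1b and right of all ticks for Chaf1b, Nap1l1, Daxx, Ssrp1 and Hira.

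Within the 18 embryo libraries the genes differed in how much they varied. The 9 with a mean of at least 10 CPM had a median coefficient of variation of 35.7%, against 41.9% over the 7180 genes of that level. Asf1b varied most of these, at 45.4%, with its highest library 7.95 times its lowest, and Ssrp1 least, at 32.6%, with a ratio of 3.10. Hira, below that level, varied by 108%.

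At 24h, all 10 genes had a called H3K4me3 region within 2 kb of their start, a mark found at active and poised promoters; 72.5% of 20022 protein-coding genes had one. None of the 10 had a called region of H3K27me3, the mark set by the Polycomb complex PRC2, where 17.8% of the coding genes had one. None had a called AcNPM1 region in the table of control and KO embryos (15.8% of coding genes) or in the table with the p300 inhibitor (18.2%). The same held within 1 kb and within 5 kb of the start. With no such region, no ratio could be measured for the 10 and nothing is read from its absence. Over the promoter regions of all genes, 0.0523% passed 2-fold for H3K27me3, 0.173% for AcNPM1 between KO and control, and 0.193% for AcNPM1 with the inhibitor. The nearest H3K27me3 regions lay 45.6 kb from Asf1b, 54.1 kb from Daxx and 556 kb from Atrx, and the nearest AcNPM1 regions in control and KO embryos lay 55.5 kb, 68.0 kb and 808 kb from the same genes. No count of reads is given outside called regions, so a weaker signal at these starts was not measured.

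The H3K4me3 and H3K27me3 columns carry initials, and which is control and which KO was read from the direction of the deposited ratio and from the table's title. The peak tables held 1 column a condition, with 66601350 reads in control and 49648616 in KO for H3K4me3. A ratio of RPM (reads of a region scaled by the total reads) therefore has no replicate check, and its 95% interval, an exact binomial one, covers counting error only. The 10 genes held 12 regions, of which Hira and Asf1a had 2 each. None of the 12 passed 2-fold, nor 1.5-fold, and 0.0383% of all 15648 promoter regions passed 2-fold. Over all 48658 regions the median log2 ratio of KO over control was -0.13, so a region with a ratio of 1 stood above most others.

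Daxx had the highest value, with 51.1 RPM in control and 45.6 RPM in KO over a region of 1673 bp at chr17:33908531-33910204, a ratio of 0.893 (95% interval 0.847 to 0.942). This interval holds the ratio of the median region, and relative to that median the log2 ratio was -0.036. Asf1b followed with 40.1 and 39.7 RPM over 1894 bp at chr8:83954783-83956677, a ratio of 0.9903 (0.934 to 1.05). The region of each spans the whole stretch of letters shown above for it. Chaf1b had 23.3 and 21.2 RPM (ratio 0.912, 0.842 to 0.987), Ssrp1 22.6 and 21.5 RPM, Nasp 22.1 and 21.6 RPM, Chaf1a 15.9 and 15.2 RPM and Nap1l1 15.2 and 15.2 RPM. The last 4 had ratios of 0.949 to 1.01, each with an interval that held 1.

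Asf1a had 2 small regions that went different ways. The one over its start, chr10:53596596-53597767, had 7.15 RPM in control and 8.44 RPM in KO, a ratio of 1.18 (95% interval 1.03 to 1.35). The one that begins 1969 bp downstream of the start, just inside the 2 kb limit, had 4.04 RPM in control and 2.80 RPM in KO, a ratio of 0.693 (0.561 to 0.854). Relative to the median of all regions the log2 ratios were 0.37 and -0.40. Of the 12 regions these were the furthest from the median to either side, and both intervals lay apart from 1 and from each other. Hira likewise had a region before and over its start, with 16.997 RPM in control and 14.7 RPM in KO (ratio 0.865, 0.787 to 0.9503), and one downstream, with 11.5 and 11.6 RPM (1.01, 0.906 to 1.13). Atrx had the weakest start region, with 4.64 and 4.98 RPM over 770 bp (1.07, 0.903 to 1.27).

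**Figure D4:**
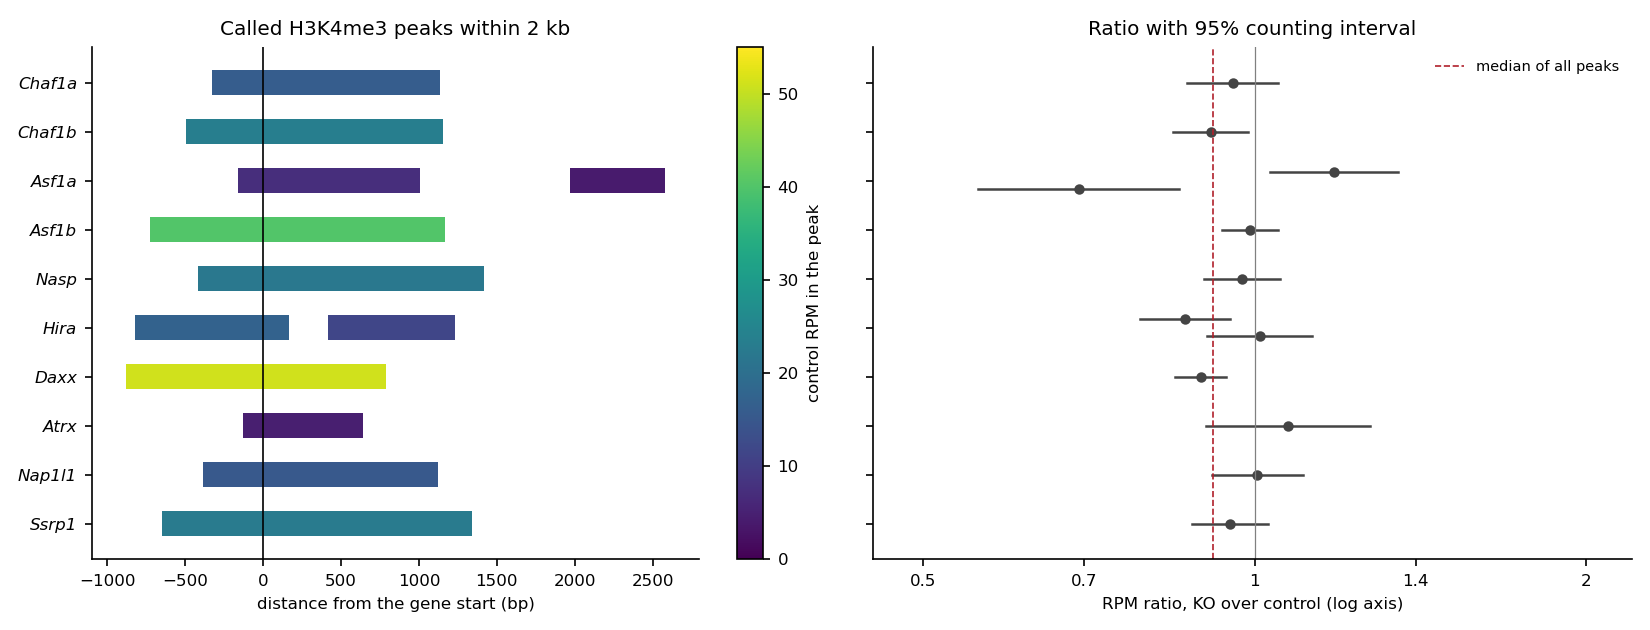
Called H3K4me3 regions within 2 kb of each gene's start at 24h: left, their span in bp from the start, coloured by control RPM; right, the RPM ratio of KO over control on a log axis with 95% counting intervals and, dashed, the median of all regions. Daxx and Asf1b carry the strongest regions, and the 2 regions of Asf1a lie on either side of the median.

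Levels can be compared between genes for this mark per length of region. Per kb, control values were 30.5 RPM for Daxx and 21.2 RPM for Asf1b, against 6.10 RPM for the Asf1a start region and 6.03 RPM for Atrx. The median of the 10 genes was 11.7 RPM per kb, against 11.4 RPM per kb over the 14507 coding genes with a promoter region, and per region 19.6 and 14.6 RPM. Asf1a and Atrx, with weak regions, and Asf1b, with a strong one, had RNA levels of at least 134, 197 and 133 CPM from 18h to 22h, and Daxx, with the strongest, had 30.4 CPM at most. The mark was measured at 24h, later than these RNA levels. At 24h the RNA ran from 162 to 499 CPM for Asf1a, 96.6 to 357 CPM for Atrx and 166 to 317 CPM for Asf1b. Daxx had no entry there. No relation between mark and RNA is drawn from 10 genes whose RNA levels are not set per length.

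Some reads may belong to neighbours. Chaf1a overlaps Ubxn6, Asf1a overlaps Mcm9 and Ssrp1 overlaps P2rx3, each on the opposite strand, and whether reads were counted by strand is not stated, so reads in the overlaps cannot be told apart.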

How the data were processed

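RNA was counted in 26 libraries and chromatin in 4 peak tables. Raw counts of reads for each gene, with mm10 coordinates, are what the authors deposited for RNA; per the submitters' processing notes the tools named are HISAT2 2.1.0, HTSeq 0.6.0, Bowtie2 2.2.3 and, for chromatin, Bowtie2 2.1.0, MACS2 2.1.1 and bcl2fastq 2.2, with no role given. The authors' mean signal per gene (counts over size factors) and the authors' fold change, a ratio in 4 tables and a log2 value at 24h, stand beside the counts; the deposited mean signal was only checked against the counts. The deposited peak tables give reads, the RPM that the authors made from total reads, and the authors' log2 ratio, per the file headers; their build is not given in the sources used here and positions were read as mm10.

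The RNA tables held 3 columns against 4 labelled samples in a group at 18h, 20h and 22h, and 2 against 3 in the stem cells. RNA and AcNPM1 columns were put in groups by name, and H3K4me3 and H3K27me3 columns, which carry initials, from the direction of the deposited ratio and the table's title. Columns were not tied to replicate numbers, and libraries are numbered in column order. Counts were fitted with edgeR 4.0.16 in R 4.3.3 (TMM, filterByExpr, quasi-likelihood test, Benjamini-Hochberg over all genes, threshold 0.05), per table and, for time and the interaction, over the 18 libraries of 18h, 20h and 22h. CPM uses TMM-scaled sizes. Columns of a 24h group that correlated over 0.99 were summed; the stem cell columns, as alike, were kept apart so that a fit exists. Intervals of fold changes use the test's own degrees of freedom. Alternatives were DESeq2 1.42.0, RLE factors, no filter, 0.01, left-out libraries and a replicate block. The fit was tested on simulated counts whose changes were larger than most reported here, and this does not bear on smaller changes.

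The rule for named genes takes all 10 chaperones in each comparison and, of 40 partner genes, those past the threshold with at most 3 in each direction, or else the 2 with the lowest p. A partner gene that this rule would name at 24h is not reported here. Members and lists were chosen with earlier results of these data known. The RefSeq table (GRCm38.p6) held a start region for all 10, with starts 0 to 287 bp from those of the deposited gene entries.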

Additional observations from a re-analysis of the deposited data

Results flagged for a closer look

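For 3 of the genes, every library moved one way with loss of LoNA in embryos at 1 time and the opposite way in 2C-like mESC, and for none of the 3 did this hold at another time; the difference between embryos and stem cells was not tested, and only the stem cell changes of Asf1a and Asf1b passed edgeR's test. Asf1a had a log2 change of -1.43 in KO embryos at 24h and of 0.43 in KD stem cells, but of -0.017 at 18h, 0.30 at 20h and 0.15 at 22h. Asf1b had -0.36 at 18h and 0.74 in the stem cells. At 20h it had -1.46, the same direction as at 18h and larger, but with groups that overlapped. It had 0.31 at 22h and -0.029 at 24h. Daxx had 0.88 at 18h, or 0.36 without KO library 2, and -0.081 in the stem cells, but 0.042 at 20h and -0.20 at 22h. Groups without overlap are common in these tables: 12.8% of all genes tested at 18h, 9.87% at 20h, 9.23% at 22h, 33.3% at 24h and 86.6% in the stem cells. The share of all genes with such an opposite pattern was not counted, so nothing particular to these 3 genes is read from it. KO embryos and KD stem cells were compared each with their own controls, in tables normalised separately, and the embryo groups held 2 or 3 libraries, so none of the 4-sample checks for a lone library could be applied.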

How the results depend on the processing

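Over all genes of the 10 and all alternatives, 2003 of 2033 values stayed on their side of the threshold, 18 lost a call, 12 gained one, no called value changed sign and 89 uncalled ones did. The number of the 10 genes called at 24h was 2 with all columns as separate libraries and 0 to 0 without 1 library; in the stem cells it was 0 when a 2-fold change was also asked for and 6 to 7 with 1 column left out. Over time, 1 of the 10 was called by DESeq2 in controls from 20h to 22h (Chaf1a) and in KO from 18h to 20h (Asf1a), from 20h to 22h (Chaf1b) and from 18h to 22h (Nap1l1), the last 2 also 1 with RLE factors. Leaving out 1 library gave 0 to 1 in each of these 3 KO spans: 1 without KO 20h library 1 (Asf1a, adjusted p 0.0281), without KO 18h library 2 (Chaf1b, 0.0409), without control 20h library 1 (Asf1b, 0.0335) and without KO 18h library 1 (Nap1l1, 0.0425). Over all genes, DESeq2 called 62, 22, 5 and 404 between KO and control at 18h, 20h, 22h and 24h where edgeR called 1, 2, 1 and 0, and without a filter edgeR called 72, 15, 33 and 3. At 24h all columns as separate libraries gave 823. In the stem cells a 2-fold minimum left 4749 of 12177. For the time changes DESeq2 called 871, 1412 and 907 in controls and 1330, 2526 and 1637 in KO where edgeR called 143, 558, 300, 239, 1647 and 784. At a threshold of 0.01 these were 1, 32, 38, 4, 586 and 206, and no filter gave 91 in controls from 18h to 20h. Without 1 library they ran in controls from 0 to 298, 36 to 635 and 0 to 376, with the lowest count without control library 3 of 18h, 1 of 22h and 3 of 18h, and in KO from 4 to 691, 775 to 1784 and 226 to 940, with the lowest without KO library 2 or 3 of 20h, 3 of 22h and 2 of 18h. The cause was not tested. Columns share digits between groups, but no label ties them: deviations of same-numbered columns at 18h, 20h and 22h correlated at -0.127 to 0.114, and the replicate block left the 10 genes' calls at 0, 0, 0 and 8 at 18h, 20h, 22h and in the stem cells. No block could be made at 24h. The order of stem cell and embryo levels, 5 higher and 2 lower, was the same with plain library totals and with the 24h libraries added, both chosen after seeing the data. Between replicates, the spread at 18h to 24h limits what could be seen.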
